A study of Mus musculus with 6 samples.

Results

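The comparison described here sets mouse embryonic stem cells (mESC) given 2 inhibitors together against untreated mESC, with 1 array a side. Its members are 2 of the 6 arrays of the series, chosen by their labels, and every gene measured by probes of a single symbol was compared, which gave 22180 genes. The treated cells were exposed for 24 hours to 3 µM CHIR99021, called CHIR below, which blocks the kinase GSK3, and to 1 µM PD0325901, called PD, which blocks the kinase MEK, and the control cells had neither. Both were EB3 cells, a single stem cell line that carries a blasticidin resistance gene at the Pou5f1 locus, kept in N2B27 medium with LIF and BMP4. The other arrays held mESC given 3 µM CHIR alone for 24 hours, and epiblast-like cells (EpiLC) given CHIR with PD, CHIR alone or no inhibitor. EpiLC had been made from these stem cells by 2 days on serum-coated dishes in bFGF (12 ng/ml) together with Activin A (20 ng/ml). PD was never given without CHIR, so no array shows what it did by itself.

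GSK3 marks beta-catenin for destruction, and blocking it lets beta-catenin enter the nucleus, where it acts with Tcf/Lef factors on Wnt target genes. MEK activates the kinases ERK1 and ERK2 downstream of FGF receptors, and ERK signalling in turn switches on its own brakes (Sprouty, Spred and Dusp proteins) and the Ets factors Etv4 and Etv5. In mESC this ERK signal favours progress towards the epiblast, and blocking MEK and GSK3 together is the widely used culture condition that holds stem cells in the naive state.

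Array values are linear intensities as deposited, with a lowest value of 16. Median intensities lay between 60.5 and 65.2 on the 6 arrays and lower quartiles between 32.5 and 35.2. Across genes, the array of mESC with CHIR and PD correlated with the untreated mESC array at r = 0.979, where genes are not independent replicates. A gene's difference is log2 of its intensity with CHIR and PD minus log2 of its untreated intensity, and a gene is counted when it reaches 2-fold. With 1 array a side a difference comes without an error or a p-value. A lower intensity can mean fewer cells that express a gene or less RNA per cell, which cannot be told apart.

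The cells of both arrays carried the transcripts of stem cells. Pou5f1, the central pluripotency factor, was at 1121 with CHIR and PD, against 1342 untreated. Sox2, its partner, was at 1584 with CHIR and PD, against 1514 untreated. Zfp42, a naive stem cell marker, was at 2454 with CHIR and PD, against 2569 untreated, so both arrays carried the markers of the labelled cell type. The summed intensity of the 15 measured fibroblast (feeder) markers was 2777 with CHIR and PD, against 2398 untreated, with 1 member at least 2-fold higher, the smooth muscle gene Tagln (408 against 169). The summed intensity of the 14 endothelial and blood markers was 770 with CHIR and PD, against 822 untreated, and 0 of them differed 2-fold.

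Of the 22180 genes, 137 (0.618%) were at least 2-fold higher with CHIR and PD than untreated and 188 (0.848%) were at least 2-fold lower. Over all genes 10781 lay above 0 and 11399 below it. These shares are the background for every count of list members below. The larger differences lay on the lower side, where 29 genes reached 4-fold, against 6 on the higher side. The middle 95% of all genes lay between -0.65 and 0.65 on the log2 scale. Just inside and outside the threshold, the nearest higher genes were at 1.002 and 1.000 and the nearest lower genes at -1.005 and -0.997, so the count has no natural edge. Many of the counted genes were dim, so counts were repeated with the lowest value of each array set to 64 in place of 16 (intensity minus 16 plus 64), named below as a floor of 64. With CHIR and PD, 65 of the 188 lower genes had an intensity below that array's median, and without inhibitors 31 of the 137 higher genes were below theirs. Of the 325 counted genes, 15 had several probes, and in 0 of those did a probe point the other way. In only 5 of the 15 did every probe reach 2-fold, so the rest had at least 1 probe short of it.

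**Figure D1:**
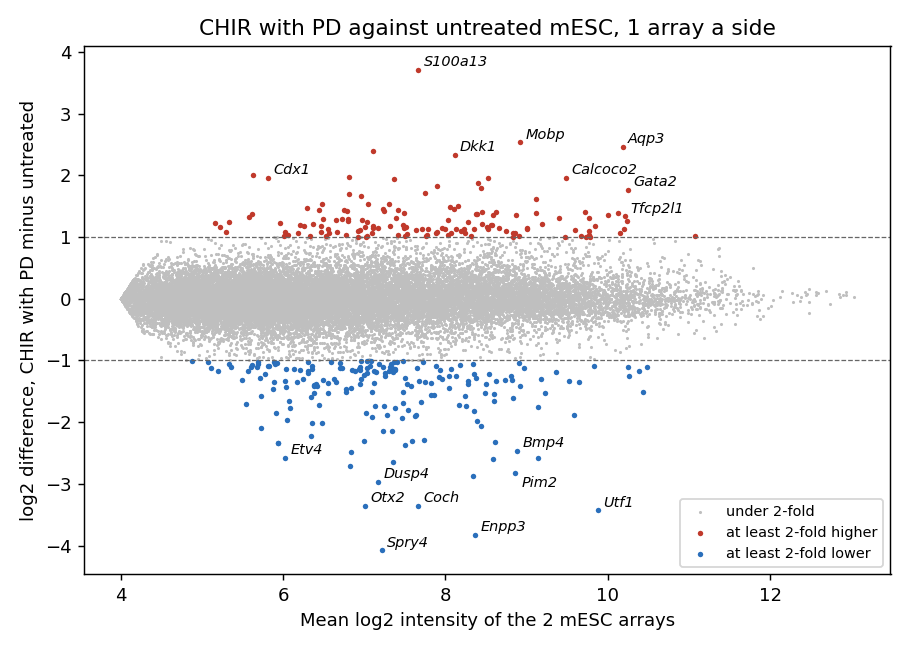
Log2 difference of each of 22180 genes between mESC with CHIR and PD and untreated mESC (vertical axis) against the mean log2 intensity of both arrays (horizontal axis), 1 array a side. Red points are the 137 genes at least 2-fold higher, blue points the 188 at least 2-fold lower, and the points farthest from 0 are Spry4 below (-4.07) and S100a13 above (3.71).

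Genes that restrain ERK signalling included the gene with the largest difference of all. Of 22 measured genes listed as feedback inhibitors, 6 were at least 2-fold lower with CHIR and PD and 1 was higher. The shares over all genes were 0.848% and 0.618%, and the median of the list was -0.18. The list also holds the p38 and JNK phosphatases Dusp8, its 1 higher member, and Dusp10. The gene with the largest difference was Spry4, a Sprouty inhibitor of receptor tyrosine kinase signalling. Its intensity was 36.2 with CHIR and PD, against 608 with CHIR alone and 610.5 untreated, a 16.8-fold difference between the first and the last. The value with both inhibitors is close to the lower quartile of its array (34.7), and CHIR alone left the gene where it was untreated. Dusp4, a nuclear phosphatase that removes phosphate from ERK, was at 51.5 with CHIR and PD, against 552 with CHIR alone and 401 untreated (-2.96 on the log2 scale). Dusp6, the cytoplasmic ERK phosphatase, was at 37.5 with CHIR and PD, against 177 with CHIR alone and 174.5 untreated (-2.22). Its 2 probes were unequal in size, at -3.97 and -0.47, with the second dim on both arrays (28.6 with CHIR and PD, against 39.5 untreated).

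The Spred and Sprouty relatives followed the same order of arrays. Spred1, which blocks Ras activation of Raf, was at 116 with CHIR and PD, against 463 with CHIR alone and 370 untreated (-1.67). Spred3 was at 99.1 with CHIR and PD, against 356 with CHIR alone and 318 untreated (-1.68). Spry2 was at 290.3 with CHIR and PD, against 731 with CHIR alone and 693 untreated (-1.25). In all 6 feedback genes the array with both inhibitors was the low one, and the array with CHIR alone was close to untreated or above it. The family did not move as a block. Spred2 (-0.81) and Spry1 (-0.78) were lower by less than 2-fold, and Il17rd, another inhibitor of FGF signalling, was at -0.20. The p38 and JNK phosphatases went the other way, Dusp8 at 177 with CHIR and PD, against 95.2 with CHIR alone and 82.7 untreated (1.10, under 2-fold with a floor of 64), and Dusp10 at 0.70. Dusp9, an ERK phosphatase linked to BMP4 in mESC, was at 1207 with CHIR and PD, against 894.5 untreated (0.43).

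Of 27 measured transcription factors that ERK induces, 6 were at least 2-fold lower and 0 higher, while the list's median was -0.03. The median moved to -0.28 when dim genes were left out. Etv4, an Ets factor downstream of FGF receptors, was at 26.5 with CHIR and PD, against 262 with CHIR alone and 158 untreated (-2.58). Etv5 was at 167 with CHIR and PD, against 458 with CHIR alone and 559 untreated (-1.74), its 2 probes at -2.91 and -0.58. Etv1 was at 90.0 with CHIR and PD, against 234 with CHIR alone and 305 untreated (-1.76). All 3 members of this Ets subfamily were thus lowest with both inhibitors. Egr1, an immediate early gene, was at 25.7 with CHIR and PD, against 87.6 with CHIR alone and 109 untreated (-2.09). The values of Etv4 and Egr1 with both inhibitors lay below the lower quartile of that array (34.7). Myc, the growth regulator, was at 170 with CHIR and PD, against 439 with CHIR alone and 710 untreated (-2.06), and its relative Mycn was at 368, against 443 and 906 (-1.30). For both Myc genes the CHIR array lay between the other two. Fos (-0.91) and the ERK-responsive Phlda1 (-0.92) stayed under 2-fold, and Elf4 (0.94) and Ets2 (0.74), also Ets factors, were higher by less than 2-fold.

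Among 29 measured receptors, ligands and kinases of the pathway, 1 was at least 2-fold higher and 2 lower, with a median of 0.05. Kit, the stem cell factor receptor, was at 903 with CHIR and PD, against 452 with CHIR alone and 343.5 untreated (1.39). Epha2, an ephrin receptor, was at 199 with CHIR and PD, against 535 with CHIR alone and 419 untreated (-1.07, under 2-fold with a floor of 64). Fgfbp1, a secreted carrier of FGF, was at 102.5 with CHIR and PD, against 134 with CHIR alone and 220.4 untreated (-1.10, likewise under 2-fold with a floor of 64). Fgf4, the main FGF ligand that mESC make, was at 1482 with CHIR and PD, against 909.5 with CHIR alone and 1125 untreated (0.40).

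**Figure D2:**
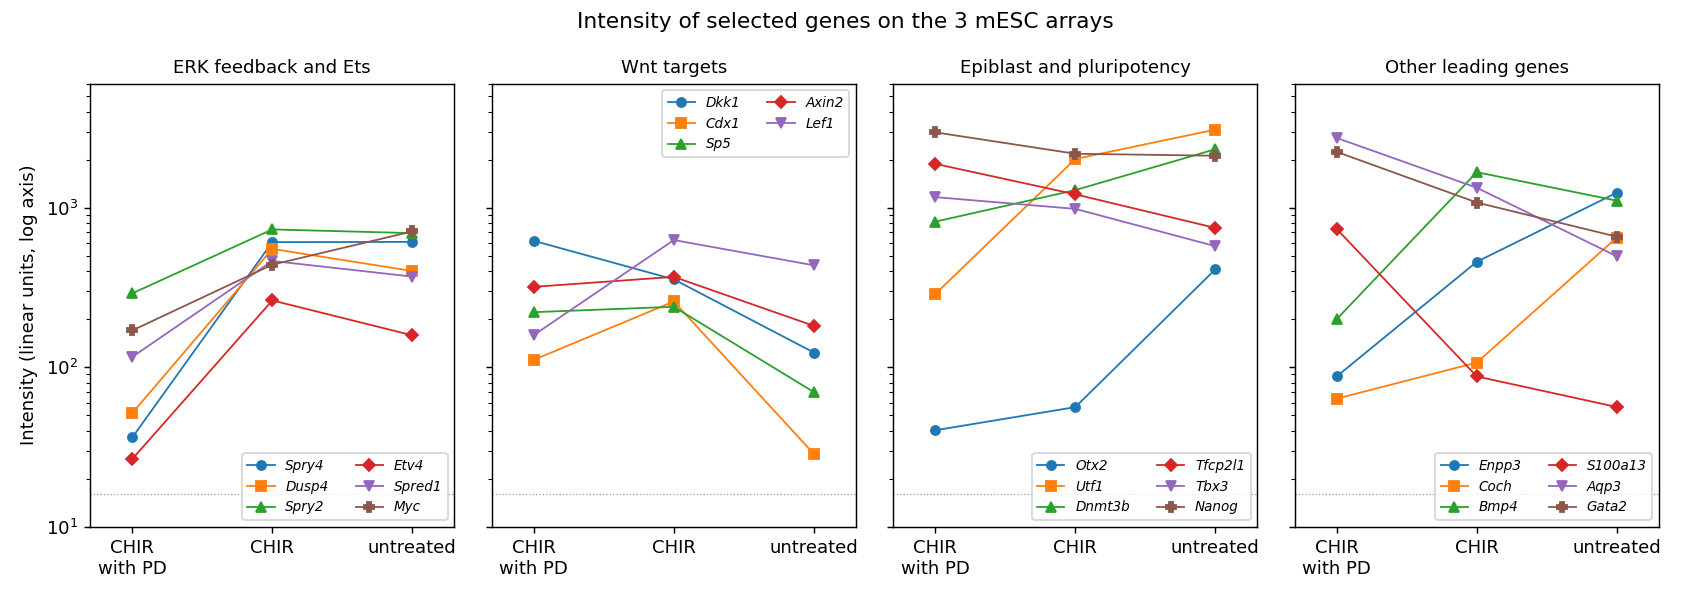
Intensity (linear units on a log axis) of selected genes on the 3 mESC arrays, CHIR with PD, CHIR alone and untreated from left to right, 1 array each, with a dotted line at the lowest value of 16. The lines join the arrays of 1 gene and show no course in time. Spry4, Dusp4 and Etv4 were low on the CHIR with PD array alone (36.2, 51.5 and 26.5), whereas Sp5 and Axin2 were higher on both arrays with CHIR.

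Target genes of Wnt and beta-catenin were mixed, with 3 of 26 measured higher by 2-fold or more with CHIR and PD, 1 lower, and a median of 0.09. The same list had a median of 0.50 on the CHIR array against untreated and of -0.20 on the CHIR with PD array against CHIR, comparisons that share arrays with each other. Dkk1, a secreted Wnt antagonist and feedback target, was at 620 with CHIR and PD, against 355 with CHIR alone and 123.5 untreated (2.33). Sp5, a zinc finger factor activated directly by beta-catenin, was at 221 with CHIR and PD, against 239 with CHIR alone and 69.8 untreated (1.66). Cdx1, a caudal homeobox factor, was at 111 with CHIR and PD, against 258 with CHIR alone and 28.6 untreated (1.96). Its untreated value lay below the lower quartile of that array (35.2). Axin2, the universal feedback target, was at 319 with CHIR and PD, against 368 with CHIR alone and 181.5 untreated (0.81), its 2 probes at 1.19 and 0.44. These 4 genes were above untreated on both arrays that had CHIR.

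Another 3 targets were above untreated with CHIR alone and near it with both inhibitors. Mixl1, a homeobox gene of the primitive streak, was at 33.6 with CHIR and PD, against 321 with CHIR alone and 33.0 untreated. Cdx2 was at 111 with CHIR and PD, against 273 with CHIR alone and 110.5 untreated. Nkd1, an inhibitor of Wnt signalling, was at 44.9 with CHIR and PD, against 74.1 with CHIR alone and 46.1 untreated. For Nkd1 the difference of CHIR alone from untreated was under 2-fold (0.68). In these 3 genes the array with both inhibitors stood at the untreated level. Lef1, itself a partner of beta-catenin, was at 159 with CHIR and PD, against 627 with CHIR alone and 435 untreated (-1.45), the 1 member of the list at least 2-fold lower. Tnfrsf19 was at 198 with CHIR and PD, against 267 with CHIR alone and 129 untreated (0.62), and Lgr5, a receptor for R-spondins, had a mean of 0.75 from probes at -0.02 and 1.51. Among 37 measured components of the Wnt pathway 1 was higher and 2 lower, with a median of 0.01. Wls, needed for Wnt secretion, was at 309.5 with CHIR and PD, against 255 with CHIR alone and 152 untreated (1.02). Fzd7, a Wnt receptor, was at 181 with CHIR and PD, against 270 with CHIR alone and 398 untreated (-1.14). Both fell short of 2-fold with a floor of 64. Tle4, a corepressor that binds Tcf factors, was at 828 with CHIR and PD, against 1287.5 with CHIR alone and 1781 untreated (-1.10).

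The 250 bases before the start of Sp5, Dkk1 and Pim2 are shown because each holds letters that Tcf/Lef factors bind, while the genes differed in opposite directions, Sp5 and Dkk1 higher and Pim2 lower. Capitals mark the letters CTTTGAT in Sp5, those ending in another base (CTTTGAA) in Dkk1, and in Pim2 the opposite strand of those in Sp5, and the sequences are from RefSeq on build GRCm38.p6, written 5′ to 3′ on the strand of the gene.
Sp5, chr2:70474673-70474922, plus strand: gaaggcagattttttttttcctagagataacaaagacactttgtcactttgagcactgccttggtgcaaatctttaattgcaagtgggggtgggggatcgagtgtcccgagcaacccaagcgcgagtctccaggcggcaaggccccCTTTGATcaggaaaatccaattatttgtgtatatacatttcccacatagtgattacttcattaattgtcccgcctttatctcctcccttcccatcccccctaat
Dkk1, chr19:30549497-30549746, minus strand: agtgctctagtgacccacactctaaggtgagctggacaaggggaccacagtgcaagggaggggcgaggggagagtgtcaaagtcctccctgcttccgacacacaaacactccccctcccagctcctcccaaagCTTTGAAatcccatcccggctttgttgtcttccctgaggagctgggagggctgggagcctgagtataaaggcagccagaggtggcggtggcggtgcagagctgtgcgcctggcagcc
Pim2, chrX:7878056-7878305, plus strand: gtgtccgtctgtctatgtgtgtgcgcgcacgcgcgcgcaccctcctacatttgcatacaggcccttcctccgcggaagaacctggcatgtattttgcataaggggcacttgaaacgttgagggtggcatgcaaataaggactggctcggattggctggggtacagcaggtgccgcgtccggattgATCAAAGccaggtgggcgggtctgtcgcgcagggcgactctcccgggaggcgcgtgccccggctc
Counting back from the start of the gene, the capitals lie at bases -104 to -98 in Sp5, -117 to -111 in Dkk1 and -65 to -59 in Pim2. The Tcf/Lef letters were about as frequent in the counted genes as among all promoters. On either strand, CTTTGAT or CTTTGAA was in 6.92% of the 130 promoters found for 106 of the genes at least 2-fold higher. The share was 6.18% of the 178 promoters found for 128 of the genes at least 2-fold lower. It was 7.48% of all 32851 promoters of this length and 6.66% of the 20611 promoters of measured genes. The Ets letters CCGGAAG were in 2.31% of the promoters of higher genes and 3.93% of those of lower genes. They were in 6.91% of all promoters and 8.88% of those of measured genes. A Stat motif (TTCCNNGAA) was in 3.85% of the promoters of higher and 3.93% of those of lower genes, against 4.06% of all. An AP-1 motif (TGANTCA) was in 5.38% of the promoters of higher and 6.18% of those of lower genes, against 6.75% of all. The Esrrb letters TCAAGGTCA were in 0 promoters of either group, against 0.387% of all, and such matches describe letters and not bound sites.

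Genes of naive pluripotency were mildly higher as a list. Of 25 measured, 2 were at least 2-fold higher and 0 lower, 16 lay above 0, and the median was 0.15, against -0.01 over all genes. Tfcp2l1, a factor downstream of both LIF and Wnt signals, was at 1884 with CHIR and PD, against 1213 with CHIR alone and 747 untreated (1.33). Tbx3, a T-box factor of naive cells, was at 1165 with CHIR and PD, against 983 with CHIR alone and 574 untreated (1.02). Tbx3 fell just below 2-fold when arrays were quantile normalised (0.97) or with a floor of 64 (0.96). Prdm14, which restrains FGF signalling and DNA methylation in mESC, was at 238 with CHIR and PD, against 125 with CHIR alone and 120.2 untreated (0.99). Jam2, a junction protein, was at 1557 with CHIR and PD, against 855 with CHIR alone and 811 untreated (0.94). Esrrb was at 524 with CHIR and PD, against 467 with CHIR alone and 357 untreated (0.55). Tfcp2l1, Tbx3 and Esrrb were above untreated on both CHIR arrays, whereas Prdm14 and Jam2 stood out on the array with both inhibitors. Nanog was at 2969.5 with CHIR and PD, against 2180 with CHIR alone and 2118 untreated (0.49), Klf4 at 572, against 404 and 398.5 (0.52), and Klf2 at 0.25. On the other side of 0 lay 9 naive genes, the farthest being Klf5 (-0.40), Zfp57, which protects imprints (-0.64), and Aire (-0.84).

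Core pluripotency genes leaned lower, 3 of 20 measured by 2-fold or more and 0 the other way, with a median of -0.26 and 16 below 0. Utf1, a chromatin protein of pluripotent cells, was at 287 with CHIR and PD, against 2021 with CHIR alone and 3089 untreated (-3.43). The adjacent pair Dppa4 and Dppa2, chromatin factors of the early embryo, were lower too. Dppa4 was at 260.2 with CHIR and PD, against 540 with CHIR alone and 794 untreated (-1.61). Dppa2 was at 894 with CHIR and PD, against 1539 with CHIR alone and 2010 untreated (-1.17). In all 3 the CHIR array lay between the others. The RNA-binding genes L1td1 (-0.94) and Lin28a (-0.82) and the Nodal co-receptor Tdgf1 (-0.46) were lower by less than 2-fold.

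The formative and epiblast genes had the most members at 2-fold. Of 27 measured, 11 were at least 2-fold lower and 0 higher, against 0.848% and 0.618% of all genes. In this list 24 lay below 0, and the median was -0.79. The median was -0.49 with a floor of 64. The 11 include Dnmt3a, Dnmt3b and Dnmt3l, Lef1 and Etv1, which other lists hold too. Otx2, the homeobox factor that drives the exit towards the epiblast, was at 40.2 with CHIR and PD, against 56.2 with CHIR alone and 410.5 untreated (-3.35). Pim2, a serine/threonine kinase, was at 174 with CHIR and PD, against 363 with CHIR alone and 1229 untreated (-2.82). Tcf15, a bHLH factor of primed mESC, was at 174 with CHIR and PD, against 504 with CHIR alone and 869 untreated (-2.32). Of these differences, the array with CHIR alone already stood at -2.87 for Otx2, -1.76 for Pim2 and -0.78 for Tcf15 against untreated, and all 3 were lower again with both inhibitors. Grhl2 (-1.37), an epithelial factor of the primed state, Foxd3 (-1.06) and Zic2 (-1.06) were also at 2-fold or more, Foxd3 and Zic2 not with a floor of 64. Fgf5, the classical epiblast marker, was dim throughout, at 19.9 with CHIR and PD, against 35.6 with CHIR alone and 36.0 untreated (-0.85). Pou3f1, another epiblast factor, was at -0.77. The members above 0 were Cldn6 (0.27), Tead2 (0.25) and Cdh2 (0.24).

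DNA methylation genes differed member by member, with 3 of 13 measured at least 2-fold lower, 1 higher and a median of -0.01. Dnmt3l, the cofactor of the de novo enzymes, was at 119.5 with CHIR and PD, against 483.5 with CHIR alone and 875 untreated (-2.87). Dnmt3b, a de novo methyltransferase, was at 817.5 with CHIR and PD, against 1289 with CHIR alone and 2327 untreated (-1.51). Dnmt3a, the other de novo enzyme, was at 213 with CHIR and PD, against 289 with CHIR alone and 520 untreated (-1.29). The de novo machinery was thus lowest with both inhibitors, with the CHIR array between. Tet1 (-0.42) and Tet2 (0.01), which oxidise methylated cytosine, and Uhrf2 (0.84) stayed under 2-fold. Gadd45b, a stress-induced gene tied to demethylation, was at 746 with CHIR and PD, against 252 with CHIR alone and 292 untreated (1.35). Of 28 measured germline genes, many of them known targets of promoter methylation, 1 was at least 2-fold lower and 23 lay below 0, with a median of -0.22. That 1 was Mael, a piRNA pathway gene, at 62.9 with CHIR and PD, against 85.3 with CHIR alone and 160 untreated (-1.34, under 2-fold with a floor of 64). Among 15 measured genes of the 2-cell-like state, Zscan4c was at 68.5 with CHIR and PD, against 94.1 with CHIR alone and 246 untreated (-1.84), the only member at 2-fold.

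**Figure D3:**
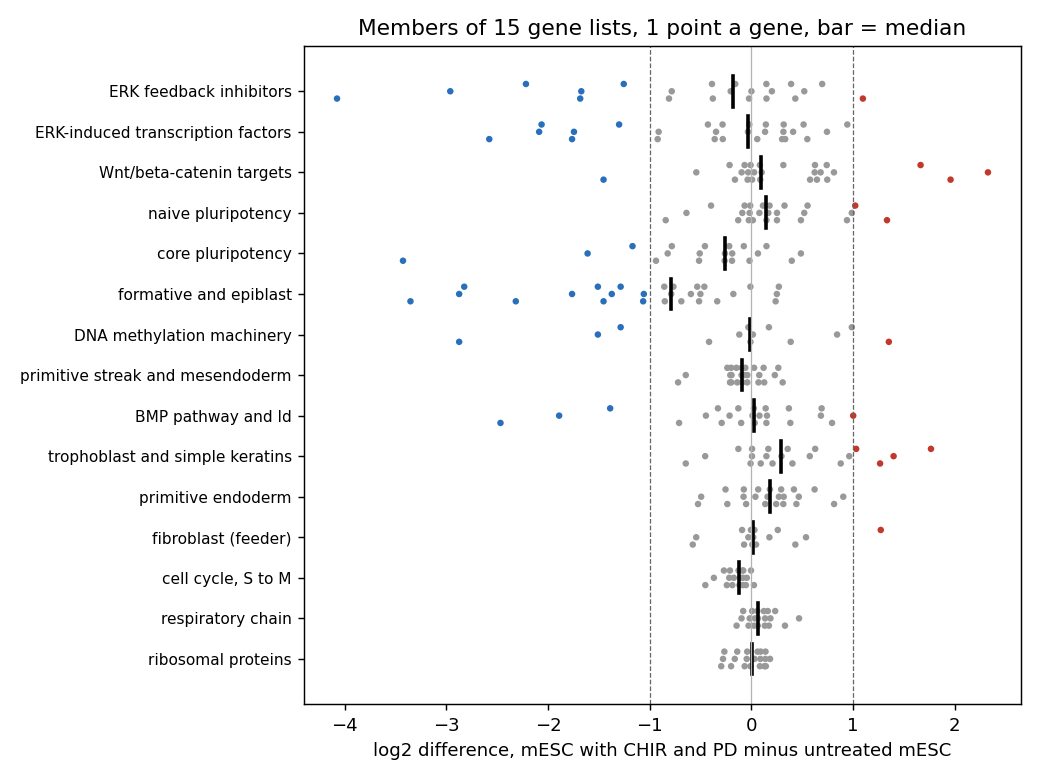
Log2 difference between mESC with CHIR and PD and untreated mESC (horizontal axis) of each measured member of 15 gene lists, 1 point a gene, with a bar at the list's median and dashed lines at 2-fold. Blue points are at least 2-fold lower and red points at least 2-fold higher. Formative and epiblast genes have a median of -0.79, and ribosomal proteins lie between -0.30 and 0.18.

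BMP4 induces Id genes, the inhibitors of bHLH factors that hold off neural differentiation. It was in the culture medium of the mESC, but whether it stayed there during the 24 hours of treatment is not stated in the labels. Among 23 measured genes of the pathway, 3 were at least 2-fold lower and 1 higher, with a median of 0.02. Bmp4 itself was at 200.2 with CHIR and PD, against 1670.2 with CHIR alone and 1107 untreated (-2.47). Id1 was at 399 with CHIR and PD, against 989 with CHIR alone and 1480.2 untreated (-1.89). Id3 was at 192 with CHIR and PD, against 425 with CHIR alone and 503 untreated (-1.39). These 3 were lowest with both inhibitors, while Id2 was at -0.71. Msx2, a homeobox target of BMP and Wnt, was at 183 with CHIR and PD, against 179 with CHIR alone and 91.6 untreated (1.00, under 2-fold with a floor of 64). Of 20 measured Activin/Nodal genes 0 reached 2-fold, with Lefty2 at 0.90, Lefty1 at 0.82, Inhbb at -0.85 and Fst, an activin antagonist, at -0.84. Of 19 measured LIF-STAT3 genes 0 reached 2-fold either, and the largest difference was that of Socs2 (-0.59).

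Trophoblast genes and simple keratins, as a list, lay above 0 in 17 of 21 measured members, with 4 at least 2-fold higher, 0 lower and a median of 0.30. The median was 0.18 with a floor of 64. Their summed intensity, in which bright members weigh most, was 12679 with CHIR and PD, against 6824 untreated. Gata2, a zinc finger factor, was at 2239 with CHIR and PD, against 1078 with CHIR alone and 658 untreated (1.77). Krt8 and Krt18, the paired keratins of simple epithelia, were higher together. Krt18 was at 1369.5 with CHIR and PD, against 655 with CHIR alone and 519 untreated (1.40). Krt8 was at 1872 with CHIR and PD, against 928 with CHIR alone and 778 untreated (1.27). Krt19 was at 374 with CHIR and PD, against 198 with CHIR alone and 183 untreated (1.03, under 2-fold with a floor of 64). All 4 were highest with both inhibitors. Of the other members, Igf2 (0.96) and Rhox6 (0.88) were higher by less than 2-fold. The trophoblast factors Eomes (-0.64), Cdx2 (0.01) and Ascl2 (-0.01) were lower by less than 2-fold or near 0. Hand1 (0.15), Gata3 (0.09), Tead4 (0.01) and Elf5 (-0.13) were also close to 0, and Tfap2c was at 0.36. Whether any trophoblast cells were present was not tested. Of 23 measured primitive endoderm genes 0 reached 2-fold, with a median of 0.18 and a summed intensity of 6082 with CHIR and PD, against 4897 untreated. Of 25 measured primitive streak and mesendoderm genes 0 reached 2-fold, and of 19 neuroectoderm genes 1 was lower (Zic2), with a summed intensity of 2575 with CHIR and PD, against 2859 untreated.

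The strongest single genes included several outside these lists. Enpp3, an ectoenzyme that cleaves nucleotides, was at 87.6 with CHIR and PD, against 458 with CHIR alone and 1242 untreated (-3.83, or 14.2-fold). Coch, a secreted protein of the inner ear matrix, was at 63.4 with CHIR and PD, against 107 with CHIR alone and 650.2 untreated (-3.36). Alox15, a lipoxygenase, was at 44.3 with CHIR and PD, against 368 with CHIR alone and 290.3 untreated (-2.71). Coch was thus already low with CHIR alone, Alox15 was low only with both inhibitors, and Enpp3 lay between. The metal importer Slc39a14 was at 65.0 with CHIR and PD, against 322 with CHIR alone and 408 untreated (-2.65). The amino acid exchanger Slc7a7 was at 157 with CHIR and PD, against 782 with CHIR alone and 945.5 untreated (-2.59). Enox1 was at 230.2 with CHIR and PD, against 1100 with CHIR alone and 1373 untreated (-2.58). These 3 were close to untreated with CHIR alone. Sned1, a matrix protein, was at 48.3 with CHIR and PD, against 89.6 with CHIR alone and 269 untreated (-2.48).

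On the higher side S100a13 led. This calcium-binding protein was at 734 with CHIR and PD, against 87.5 with CHIR alone and 56.2 untreated (3.71, or 13.1-fold). Its relative S100a1 was at 316 with CHIR and PD, against 102 with CHIR alone and 60.2 untreated (2.39). Mobp, known from myelin, was at 1161 with CHIR and PD, against 291 with CHIR alone and 201 untreated (2.53). All 3 were within 2-fold of untreated with CHIR alone and more than 4-fold higher with both inhibitors. Aqp3, a water and glycerol channel, was at 2737.5 with CHIR and PD, against 1334 with CHIR alone and 496 untreated (2.47). Dmgdh, a mitochondrial enzyme of choline breakdown, was at 99.1 with CHIR and PD, against 85.9 with CHIR alone and 24.6 untreated (2.01). Its untreated value lay below the lower quartile of that array (35.2). Cpt1a, which admits fatty acids to mitochondria, was at 648 with CHIR and PD, against 406 with CHIR alone and 187 untreated (1.79). For these enzymes and the channel the CHIR array already stood above untreated. Calcoco2, an autophagy receptor, was at 1412 with CHIR and PD, against 163.5 with CHIR alone and 363 untreated (1.96), so that CHIR alone and CHIR with PD lay on opposite sides of untreated. Hspb8, a small heat shock protein, was at 726 with CHIR and PD, against 342 with CHIR alone and 187 untreated (1.96). Gss, which makes glutathione, was at 646 with CHIR and PD, against 285.5 with CHIR alone and 176 untreated (1.88). The remaining leaders, Myh13 (1.97), Lrrc15 (1.94) and Nxf7 (1.82), were likewise highest with both inhibitors.

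Genes of G1 control differed in both directions, with 1 of 20 measured at least 2-fold higher and 2 lower. Cdkn1a, the p21 inhibitor of cyclin-dependent kinases, was at 1369 with CHIR and PD, against 1163 with CHIR alone and 553 untreated (1.31). Ccnd2, a D-type cyclin, was at 47.8 with CHIR and PD, against 214 with CHIR alone and 157.5 untreated (-1.72). The other lower member was Myc, given above, and Cdk6, a kinase that D-type cyclins activate, was just under 2-fold, at 143 with CHIR and PD, against 348 with CHIR alone and 286 untreated. Of 19 measured genes of S phase to mitosis, 18 lay below 0 but within a narrow range (-0.45 to 0.03), and 0 reached 2-fold. Of 19 measured p53 targets, Cdkn1a was the only member at 2-fold. Ribosomal proteins (20 measured, median 0.01) and respiratory chain genes (20 measured, median 0.06, range -0.14 to 0.47) had 0 members at 2-fold.

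The same inhibitors were given to EpiLC on arrays of their own, so that the contrast can be set beside the one in mESC without a shared array. Whether those 24 hours fell within or after the 2 days of induction is not stated in the labels, so altered induction and a response of finished EpiLC cannot be told apart. In EpiLC 581 genes (2.62%) were at least 2-fold higher with CHIR and PD than untreated and 330 (1.49%) lower. Of the lower genes 70 were lower in both states, 37.2% of the 188 in mESC and 21.2% of the 330 in EpiLC. Of the higher genes 55 were higher in both, 40.1% of the 137 in mESC and 9.47% of the 581 in EpiLC. Across all 22180 genes the differences in the 2 states correlated at r = 0.35 (Pearson) and 0.24 (Spearman), which describes genes on 4 arrays normalised together and has no p-value. Of the 22 genes listed as ERK feedback inhibitors, 6 were at least 2-fold lower and 1 higher in EpiLC, the counts seen in mESC. The members were not all the same. Spred1, among the 6 in mESC, was at -0.74 in EpiLC, where Spry1 (-1.01) was among the 6. The higher member in EpiLC was Lrig1 (2.15, against 0.39 in mESC), while Dusp8, the higher one in mESC, was at 0.81. Spry4 was at 22.3 in EpiLC with CHIR and PD, against 346 in untreated EpiLC (-3.95), and Dusp4 at 101, against 665 (-2.72). Enpp3 was at 73.7 in EpiLC with CHIR and PD, against 1317 untreated (-4.16), and Utf1 at 91.7, against 3091.5 (-5.08). Otx2, brighter in untreated EpiLC than in untreated mESC, was at 59.0 with CHIR and PD, against 1025 untreated (-4.12).

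Other leading genes had their difference in mESC and little in EpiLC. Aqp3 was at 64.5 in EpiLC with CHIR and PD, against 58.8 in untreated EpiLC (0.14), both near the array medians. Gata2 was at 57.3 in EpiLC with CHIR and PD, against 50.5 untreated (0.18). Coch was at 61.8 in EpiLC with CHIR and PD, against 63.2 untreated (-0.03). These 3 genes were dim in EpiLC on both arrays. Alox15 was as bright in EpiLC as in untreated mESC, at 339 with CHIR and PD, against 322 untreated (0.08). The EpiLC array with CHIR alone stood at 1638, so the small difference does not mean that Alox15 was level across the EpiLC arrays. Bmp4 was at 285 in EpiLC with CHIR and PD, against 146 untreated (0.97), on the other side of 0 from mESC. With 1 array per group no difference between the states has a test.

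**Figure D4:**
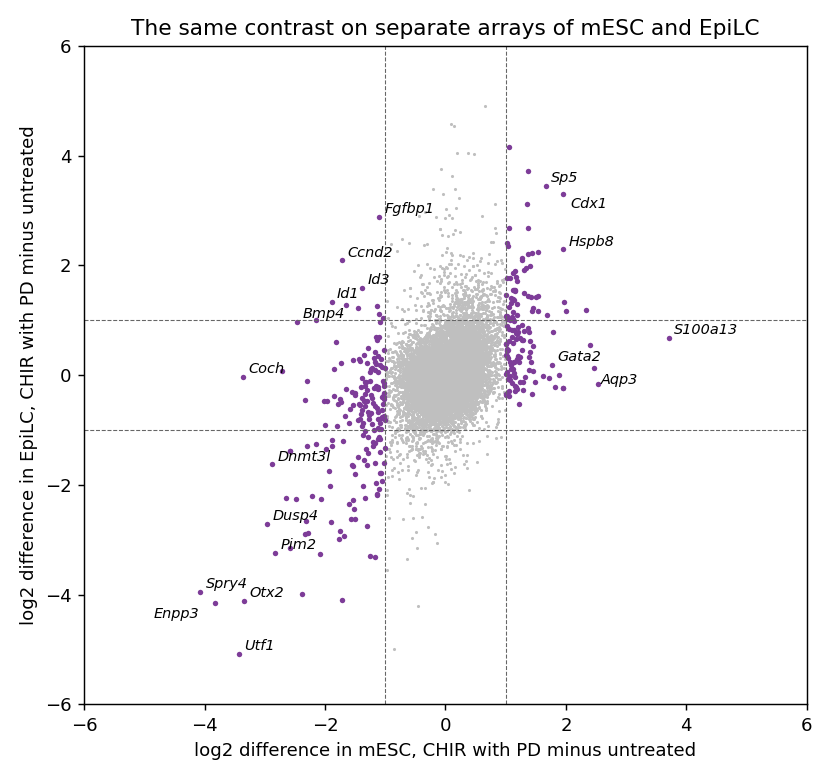
Log2 difference between CHIR with PD and untreated in mESC (horizontal axis) and in EpiLC (vertical axis) for each of 22180 genes, 1 array per group, with dashed lines at 2-fold. Purple points are the genes at 2-fold in mESC. Spry4, Enpp3, Utf1 and Otx2 are far below 0 on both axes, Aqp3 and Gata2 are high in mESC (2.47 and 1.77) and near 0 in EpiLC (0.14 and 0.18), and Fgfbp1, Ccnd2, Id1 and Id3 lie on opposite sides.

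A linear model of cell state plus treatment over the 6 arrays (limma) gave the only test, because it takes as its error, with 2 residual degrees of freedom, how far the treatment differences of the 2 states depart from each other, on the CHIR arrays as well. For CHIR with PD against untreated it called 6 genes lower (0.0271% of the 22180) and 0 higher at an adjusted p of 0.05, with 3173 genes (14.3%) at an unadjusted p below 0.05. Spry4 fell by 4.01 ± 0.12 (SE) on the log2 scale, with an adjusted p of 0.00244 from limma. Dusp4 fell by 2.84 ± 0.13 (adjusted p = 0.0125, limma) and Dusp6 by 2.21 ± 0.13 (adjusted p = 0.028). Etv4 fell by 2.87 ± 0.19 (adjusted p = 0.033) and Pim2 by 3.03 ± 0.16 (adjusted p = 0.018). The sixth was Tmem59l, a membrane protein of neurons, which fell by 2.61 ± 0.18 (adjusted p = 0.033). Each of the 6 was lower with CHIR and PD in both states. The count depended on the fit, at 53 genes with a trended robust variance, 48 without the pair of CHIR arrays, 1 with a floor of 4 (Spry4), 1 with a floor of 64 (Dusp4) and 0 without moderation.

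Several large differences missed the threshold. Enpp3 differed by -3.99 ± 0.34 (adjusted p = 0.0763, limma), Utf1 by -4.25 ± 0.48 (adjusted p = 0.0887) and Otx2 by -3.74 ± 0.42 (adjusted p = 0.0887). Myc differed by -2.16 ± 0.19 (adjusted p = 0.0763). On the higher side Hspb8 came closest, at 2.12 ± 0.17 (adjusted p = 0.0763, limma), with Krt18 at 1.70 ± 0.18 and Cdkn1a at 1.61 ± 0.17 (both adjusted p = 0.0887). Tfcp2l1 differed by 1.64 ± 0.26 (adjusted p = 0.118, limma). Aqp3 (1.30 ± 0.50, adjusted p = 0.333) and S100a13 (2.19 ± 0.71, adjusted p = 0.276), which were high in mESC, had wide errors over both states.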

How the data were processed

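Expression was read on 6 Mouse Gene 2.0 ST arrays (Affymetrix), 1 per group. Per the series' design text, GeneSpring GX 11.5 was used. The deposited values are linear intensities that the authors normalized between arrays (the method is not given in the sources used here), with a lowest value of 16, which compresses differences of dim genes. Precision is limited by the number of arrays.

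Of 33793 probes, 23521 carried 1 gene symbol and were used, 1814 had several symbols and 8458 had no listed gene. Log2 intensities were averaged per symbol over the probes, giving 22180 genes, 1082 of them with several probes. The Entrez identifiers of 23328 probes matched the reference table and 0 symbols changed. No filter or further scaling was applied, except in the alternatives (the lowest value of 16 replaced by a floor of 4 or 64 before log2, quantile normalisation, median centring, brightest probe, and a filter at a mean log2 intensity of 6).

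Single arrays were compared by size only, at 2-fold. An additive model of state and treatment on 6 arrays was fitted with limma 3.58.1 in R 4.3.3 (lmFit, eBayes), with two-sided p-values and Benjamini-Hochberg adjustment over all genes at 0.05. In simulated data for CHIR with PD, with 200 of 22180 genes changed equally in both states, 23.7% of the 2-fold and 92.7% of the 4-fold changes were found, and 4.9% of calls were false. The simulated noise was normal, with variances drawn from limma's own fitted distribution, and no gene responded differently in the 2 states. The simulation thus follows the model's assumptions, and its rates do not measure how many of the real calls were false. The labels do not name separate cultures as replicates, and each group was 1 sample.

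Genes were described by 35 lists holding 745 distinct genes, 682 of them measured, while 63 (T and Tcf7 included) had no probe of a single symbol. Genes named in the text were drawn from the 15 genes with the largest difference in each direction, passing over predicted and small RNA symbols, the genes past limma's threshold, 4 marker genes, all measured members of the 6 ERK, Wnt target and pluripotency lists, and up to 6 members of each other list. The comparison, lists and alternatives were chosen with earlier results of these data known. Promoter sequences are those of RefSeq on GRCm38.p6, 32851 promoters of 27025 genes.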

Additional observations from a re-analysis of the deposited data

Results flagged for a closer look

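For 4 named genes the single-array differences of CHIR with PD against untreated reached 2-fold in opposite directions in the 2 states. The difference between the states was not tested, since each group was 1 array. Fgfbp1 was at 102.5 in mESC with CHIR and PD, against 220.4 in untreated mESC, and at 923 in EpiLC with CHIR and PD, against 125 in untreated EpiLC, so that its log2 difference in mESC minus that in EpiLC was -3.99. Ccnd2 was at 47.8 in mESC with CHIR and PD, against 157.5 untreated, and at 969 in EpiLC with CHIR and PD, against 227.5 untreated, and the corresponding value was -3.81. Id1 was at 144.5 in EpiLC with CHIR and PD, against 57.3 untreated, the reverse of its order in mESC, and gave -3.23. Id3 was at 190 in EpiLC with CHIR and PD, against 63.1 untreated, and gave -2.98. Over all genes, 10 of the 188 at least 2-fold lower in mESC (5.32%) were at least 2-fold higher in EpiLC, where 2.62% of all genes were. Of the 137 higher in mESC, 0 were at least 2-fold lower in EpiLC, where 1.49% of all genes were.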

How the results depend on the processing

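With 1 array per group no single-array difference has an error, and how bright a gene is above the lowest intensity of 16 limits its difference. No paired analysis was possible because no group had replicates to pair, and the limma model pairs only the treatments within each state. The 325 genes at 2-fold (137 higher, 188 lower) became 681 (295 and 386) with a floor of 4, 157 (58 and 99) with a floor of 64, 75 (19 and 56) at 3-fold and 1547 (752 and 795) at 1.5-fold. Quantile normalisation, median centring and the brightest probe kept these counts within 1.5 times. The median of the ERK-induced transcription factors was -0.28 with dim genes left out, against -0.03. With a floor of 64 the median of formative and epiblast genes was -0.49 (-0.79 otherwise), that of trophoblast and simple keratin genes 0.18 (0.30 otherwise), and the naive genes at 2-fold were 1 in place of 2. Of 210 list medians under 6 alternatives, 203 stayed within 0.1 on the log2 scale or 1.5 times and 7 moved further. Of the 81 named genes at 2-fold, 66 remained with a floor of 64 and 79 after quantile normalisation, and all 81 with a floor of 4, median centring or the brightest probe. The limma count of 6 became 53 with trended robust moderation, 48 without the CHIR arrays, 1 with a floor of 4, 1 with a floor of 64 and 0 without moderation, and those of 53 and 48 held all 6. In alternatives chosen after seeing the data, the 70 genes lower in both states became 42 with a floor of 64, and the 55 higher in both became 84 with a floor of 4 and 23 with a floor of 64. Medians near 0 changed sign, that over all genes (-0.01) to 0.03 with median centring, and those of 9 of the 35 lists, which as reported lay up to 0.08 from 0, under at least 1 alternative. Under the alternatives the medians of these 9 lists ranged from -0.33 to 0.06. No named gene at 2-fold changed direction.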

Other observations

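Adhesion and membrane genes differed in both directions on the single arrays. Gja1, a gap junction connexin, was at 308 in mESC with CHIR and PD, against 1171 with CHIR alone and 1035 untreated (-1.75). Esrp1, a splicing regulator of epithelial isoforms, was at 249 with CHIR and PD, against 366 with CHIR alone and 625.5 untreated (-1.33). Cldn4, a tight junction claudin, was at 1653 with CHIR and PD, against 911 with CHIR alone and 642 untreated (1.36). Of 23 measured cadherin and junction genes, 1 was at least 2-fold higher and 2 lower. Besides Aqp3 and Enpp3, the 15 measured aquaporins and ectonucleotidases held 1 more higher member, Enpp5 (1.17), and 1 more lower, Nt5e (-1.17), which both stayed under 2-fold with a floor of 64. Of 28 measured collagen and matrix genes 0 reached 2-fold, with a median of 0.20.

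Among metabolic and other genes, Pdk1, which limits pyruvate oxidation, was at 52.4 with CHIR and PD, against 133 with CHIR alone and 139 untreated (-1.41), and Ldhb, a lactate dehydrogenase subunit, was at 684, against 524 and 338 (1.02). Both fell short of 2-fold with a floor of 64, and Ldhb also after quantile normalisation (0.98). The arginine and lysine transporter Slc7a3 was at 623 with CHIR and PD, against 867 with CHIR alone and 1323 untreated (-1.09). B2m, the invariant chain of class I major histocompatibility molecules, was at 1064 with CHIR and PD, against 654 with CHIR alone and 428 untreated (1.31), and H2-K1, a heavy chain, was at 226, against 159 and 128 (0.82). Rarg, a retinoic acid receptor, was at 182 with CHIR and PD, against 320 with CHIR alone and 432 untreated (-1.24). Of 17 measured cholesterol synthesis genes and 19 Notch genes, 0 reached 2-fold.

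Probes outside the comparison held differences as well. Of 8458 probes listed with no gene, 16 were at least 2-fold higher and 46 lower (0.733%), and of 1814 probes with several symbols, 14 were higher and 6 lower (1.10%), against 1.48% of the 23521 probes with a single symbol.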
